A study of Mus musculus with 18 samples.

Results

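The lysosomal enzymes and membrane proteins examined here are 35 genes chosen by name: cathepsins and other acid hydrolases, their cofactors, subunits of the proton pump and proteins of the lysosomal membrane. Each was read from a probe set that the array's annotation gives to that gene alone, and where a gene had several such probe sets the one with the highest mean over all arrays was used. Of the 35, 33 were measured, out of 12394 genes read the same way, while Arsb and Cd63 had no probe set of their own in the annotation used. Each of the 33 lay above the array's median gene on all 18 arrays.

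The arrays came from dendritic cells grown from C57BL/6 mouse bone marrow (mice of 6 to 8 weeks) in medium holding 10% supernatant of B16 tumour cells that secrete GM-CSF, and cultures were taken at 7 to 10 days when over 90% of cells carried CD11c. The 3 conditions were wild type cells, wild type cells with 2 mM EGTA, which binds calcium outside the cell, and CD14-deficient cells, which lack the LPS co-receptor CD14. Each condition had 1 array without LPS, from cells 24 h after plating, and 1 array each after 2, 4, 6, 12 and 24 h of smooth LPS, given at 1 µg/ml to both wild type conditions and at a dose the labels do not state for the CD14-deficient cells. EGTA is named in the title of its unstimulated array but not in that array's protocol, and the series' stated purpose was to separate the effects of calcium entry and NFAT activation from other effects of LPS. The deficient strain is labelled Cd14-/- on C57BL/6, and differences that arose while its cultures grew and differences in the response to LPS are both part of that comparison.

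Lysosomes are acidic compartments in which hydrolases digest proteins, sugars and lipids taken up from outside or delivered from within the cell. A proton-pumping V-ATPase acidifies them, heavily glycosylated membrane proteins line them, and most soluble enzymes reach them by the mannose 6-phosphate route. Many lysosomal genes carry a short promoter sequence, the CLEAR element, whose core CACGTG is bound by the transcription factor TFEB and its relatives. In dendritic cells lysosomal proteases cut antigens and trim the invariant chain for presentation on MHC class II, and maturation after LPS is known to change acidification and proteolysis.

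Promoter letters are shown for 4 of the 6 members that were lower in CD14-deficient cells and hold CACGTG (Gla, Glb1, Lamp1 and Ctsl). They are also shown for Ctsk, the 1 member that was higher there, which does not hold it. Another 5 lower members have promoters without CACGTG and are not shown (Tpp1, Hexa, Npc2, Lamp2 and Cd68). The 5 stretches shown are therefore examples and do not relate the motif to the direction of change. Each stretch is the 250 bases before the annotated start, 5′ to 3′ on the gene's strand, from RefSeq on GRCm38.p6. Capitals mark CACGTG, together with the T before it or the A after it where that makes TCACGTG on either strand. The regions are chrX:134601006-134601255 on the minus strand for Gla, chr9:114400828-114401077 on the plus strand for Glb1, chr8:13158911-13159160 on the plus strand for Lamp1, chr13:64370521-64370770 on the minus strand for Ctsl and chr3:95498960-95499209 on the plus strand for Ctsk.
Gla: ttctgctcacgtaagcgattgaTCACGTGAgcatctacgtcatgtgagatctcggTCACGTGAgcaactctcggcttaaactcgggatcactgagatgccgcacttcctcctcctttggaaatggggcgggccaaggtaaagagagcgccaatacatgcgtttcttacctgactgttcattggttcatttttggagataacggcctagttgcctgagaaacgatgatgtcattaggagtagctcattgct
Glb1: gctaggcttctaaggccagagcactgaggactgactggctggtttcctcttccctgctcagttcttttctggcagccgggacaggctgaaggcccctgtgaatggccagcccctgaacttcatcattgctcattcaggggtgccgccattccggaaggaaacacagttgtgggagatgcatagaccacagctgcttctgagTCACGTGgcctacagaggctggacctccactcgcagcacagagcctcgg
Lamp1: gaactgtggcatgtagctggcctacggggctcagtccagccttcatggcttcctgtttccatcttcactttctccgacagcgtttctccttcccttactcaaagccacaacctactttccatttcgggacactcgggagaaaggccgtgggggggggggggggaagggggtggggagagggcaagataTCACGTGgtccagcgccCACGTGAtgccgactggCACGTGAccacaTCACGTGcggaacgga
Ctsl: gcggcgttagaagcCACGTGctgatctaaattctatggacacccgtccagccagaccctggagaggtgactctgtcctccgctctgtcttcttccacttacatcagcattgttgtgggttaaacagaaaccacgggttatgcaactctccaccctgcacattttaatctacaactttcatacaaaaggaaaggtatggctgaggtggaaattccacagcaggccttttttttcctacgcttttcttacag
Ctsk: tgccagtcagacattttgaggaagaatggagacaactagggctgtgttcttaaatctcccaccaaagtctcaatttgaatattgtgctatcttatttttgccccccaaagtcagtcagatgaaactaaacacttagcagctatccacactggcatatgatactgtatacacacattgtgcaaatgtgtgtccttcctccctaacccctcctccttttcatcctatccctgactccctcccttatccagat

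A RefSeq promoter entry, 250 bases before to 50 after the start, was found for 30 of the 35 genes, and the entries were searched on both strands for 2 motifs. The core CACGTG, which reads alike on either strand, was present for 11 of the 30, or 36.7%, against 8.09% of the 27025 genes with an entry and 12.5% of the 5711 tested genes with one. The longer TCACGTG, each match of which is also a match of the core, was present for 10 of the 30, or 33.3%, against 4.29% of all genes with an entry and 7.55% of tested ones. The 11 holders were Atp6v0d1, Atp6v1a, Cln3, Ctsa, Ctsd, Ctsl, Gaa, Gla, Glb1, Lamp1 and Mcoln1. Lamp1 had 4 matches within the printed stretch, all with the flanking letter, and Ctsl had the core without it. These are matches of letters in a window, not bound sites.

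Values below are log2 levels, that is log2 of the quantile-normalised intensity plus 16, and a change is a difference of such levels, which understates the fold change of dim genes. Probe sets differ in brightness for reasons of their own, so levels are compared between arrays and not between genes. Conditions were compared over the 15 LPS arrays with limma, the 5 times serving as replicates within a time block, and a gene was called at a Benjamini-Hochberg adjusted p under 0.05 over the 6929 genes tested. LPS was compared with no LPS over all 18 arrays, the 3 conditions serving as replicates, over 7056 genes. The labels do not state whether any cultures or mice were separate, so p-values measure only the spread between these arrays, and both condition comparisons use the same wild type arrays. In such bulk samples, fewer cells of a type and less RNA per cell cannot be told apart.

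Cd14 itself had log2 levels of 12.66 to 13.28 in wild type cells, 12.49 to 13.03 with EGTA and 4.28 to 5.84 in CD14-deficient cells. The RNA integrity number was 8.8 and 8.7 for EGTA at 12 and 24 h and 9.3 to 10 elsewhere. The unstimulated EGTA array stood apart at the dim end, where its 1st percentile was an intensity of 3.63 against at most 0.939 on the others. Median intensities of the arrays ran from 77.9 to 126.7, highest on the unstimulated EGTA and CD14-deficient arrays, so scaling bears on every comparison of LPS with no LPS. Of the dendritic cell markers, 8 of 9 lay above the array median on at least 2 arrays, as did 10 of 11 macrophage, 12 of 12 granulocyte and 0 of 6 T and NK cell markers. So did 3 of 7 mast cell and basophil, 2 of 4 plasmacytoid dendritic cell, 1 of 5 B cell and 1 of 3 erythroid markers.

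**Figure D1:**
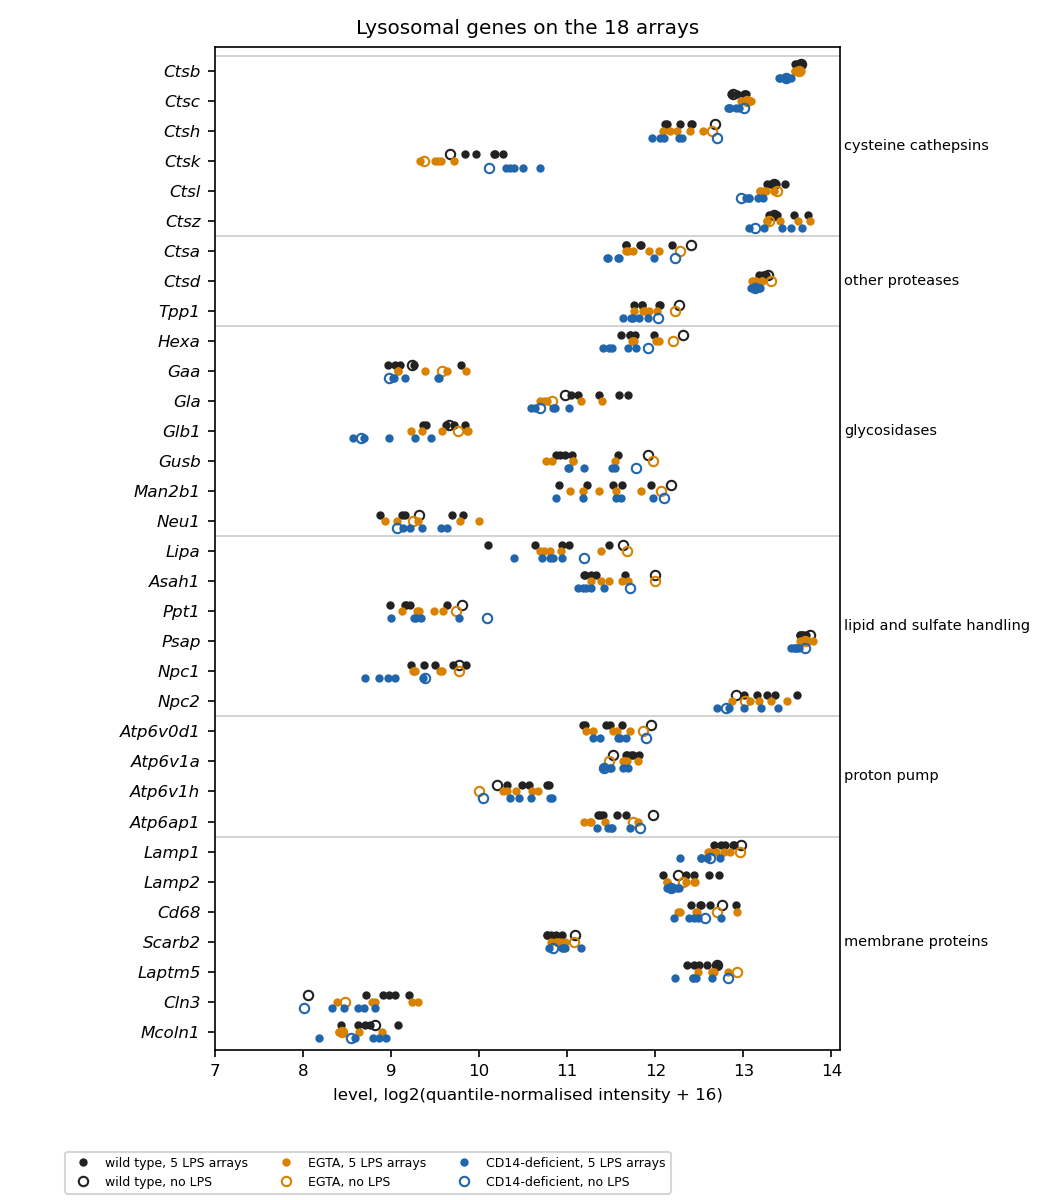
Log2 level of each of the 33 measured members on each of the 18 arrays, with members grouped by role, 1 row of points per condition, filled for the 5 LPS arrays and open for the array without LPS. The 3 conditions share most of their range for most members, while CD14-deficient points sit to the left for Glb1, Gla and Npc1 and to the right for Ctsk.

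Lysosomal transcripts were lower in CD14-deficient than in wild type cells for 14 of the 33 members and higher for 1. Glb1 (acid beta-galactosidase), Gla (alpha-galactosidase A) and Npc1 (the cholesterol exporter of the lysosomal membrane) fell by 0.60, 0.57 and 0.54 on the log2 scale. Over all tested genes 12.6% were called lower and 17.1% higher, and the median change was -0.09 over the members against 0.04 over all genes. All 14 were also lower with median centring or no further scaling, which 12.0% of all tested genes were, while Ctsk was called higher under quantile normalisation and median centring only and 4.33% of all tested genes were higher under all 3. Without the time block 1 call was left, Ctsl, and without the 4 h arrays 8 of the 15 remained. The calls of Tpp1, Cd68 and Ctsh, with the smallest differences, were lost in 22, 16 and 12 of 32 alternative settings.

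The direction was already present without LPS, where 28 of 33 members were below wild type on the lone pair of arrays, with a median of -0.17 against -0.02 over all tested genes. At 2, 4, 6, 12 and 24 h, 27, 26, 21, 22 and 24 of 33 were below wild type, with medians of -0.16, -0.19, -0.07, -0.06 and -0.09. The medians of all tested genes at those times were 0.03, 0.04, 0.04, 0.05 and 0.02. With 1 array a condition, no test applies to a single time.

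**Figure D2:**
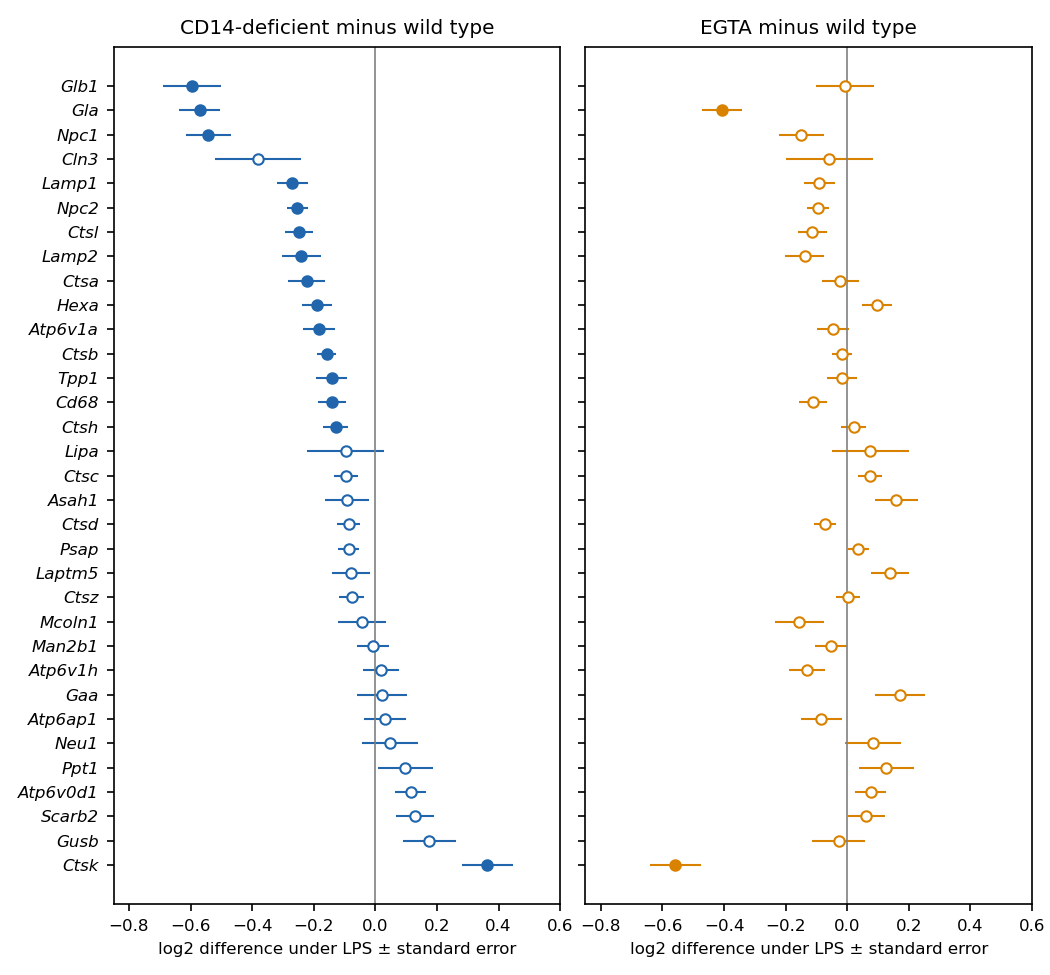
Log2 differences of each member over the LPS arrays, CD14-deficient minus wild type and EGTA minus wild type, with standard errors. Filled points have a Benjamini-Hochberg adjusted p under 0.05, which 15 members reach in the first comparison and 2, Ctsk and Gla, in the second.

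Among the cysteine cathepsins, 1 of 6 rose in CD14-deficient cells and 3 fell. Ctsk encodes cathepsin K, a collagen-degrading protease best known from bone-resorbing osteoclasts. Ctsk in wild type cells stood at a log2 level of 9.67 unstimulated and 9.84, 9.96, 10.17, 10.27 and 10.18 at 2, 4, 6, 12 and 24 h. Ctsk with EGTA stood at 9.37 without LPS and 9.57, 9.53, 9.49, 9.72 and 9.33 at those times. Ctsk in CD14-deficient cells stood at 10.12 without LPS and 10.35, 10.39, 10.70, 10.50 and 10.31 at those times. The 5 LPS arrays of the 3 conditions did not overlap, with CD14-deficient cells highest and EGTA lowest at every time. The CD14-deficient change was 0.36 ± 0.08 (limma, adjusted p = 0.00526), larger at 2 to 6 h (0.51, 0.43 and 0.53) than at 12 and 24 h (0.23 and 0.13), a difference between early and late that did not pass (limma, adjusted p = 0.372). Without further scaling it was 0.22 and not called.

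Ctsl encodes cathepsin L, an endoprotease that also processes invariant chain in some tissues. Ctsl in wild type cells stood at a log2 level of 13.35 unstimulated and 13.27, 13.37, 13.48, 13.37 and 13.32 at 2, 4, 6, 12 and 24 h. Ctsl with EGTA stood at 13.38 without LPS and 13.34, 13.26, 13.24, 13.20 and 13.20 at those times. Ctsl in CD14-deficient cells stood at 12.97 without LPS and 13.07, 13.03, 13.23, 13.17 and 13.06 at those times. Each CD14-deficient LPS array lay below each wild type one, and EGTA lay above CD14-deficient cells at each time. The CD14-deficient change was -0.25 ± 0.05 (limma, adjusted p = 0.00183) and held in all 32 alternative settings tried. Over all tested genes, 4.36% had CD14-deficient and wild type LPS arrays that did not overlap. Among members these were Ctsb, Ctsk, Ctsl, Gla and Psap.

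Ctsb encodes cathepsin B, an abundant lysosomal protease. Ctsb in wild type cells stood at a log2 level of 13.66 unstimulated and 13.63, 13.59, 13.63, 13.66 and 13.64 at 2, 4, 6, 12 and 24 h. Ctsb with EGTA stood at 13.63 without LPS and 13.58, 13.61, 13.61, 13.59 and 13.66 at those times. Ctsb in CD14-deficient cells stood at 13.48 without LPS and 13.42, 13.40, 13.48, 13.50 and 13.55 at those times. Its arrays spanned little, and the CD14-deficient ones lay below both other conditions at every time. That change was -0.16 ± 0.03 (limma, adjusted p = 0.00258). The 3 other probe sets of Ctsb gave 0.01, -0.58 and -0.78, so whether Ctsb fell, and by how much, depends on the probe set. Ctsh, an aminopeptidase of the same family, fell by 0.13 (limma, adjusted p = 0.0312). Ctsc, which activates granule proteases, and Ctsz, a carboxypeptidase, had differences of -0.09 and -0.08 and were not called.

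Of the other proteases, 2 of 3 fell. Ctsa, the protective protein that stabilises beta-galactosidase and neuraminidase, fell by 0.22 (limma, adjusted p = 0.0149), and Tpp1, a tripeptidyl peptidase, by 0.14 (limma, adjusted p = 0.0483). Ctsd encodes cathepsin D, the main aspartic protease of lysosomes. Ctsd in wild type cells stood at a log2 level of 13.28 unstimulated and 13.26, 13.22, 13.24, 13.18 and 13.24 at 2, 4, 6, 12 and 24 h. Ctsd with EGTA stood at 13.31 without LPS and 13.21, 13.14, 13.13, 13.10 and 13.22 at those times. Ctsd in CD14-deficient cells stood at 13.13 without LPS and 13.09, 13.11, 13.19, 13.15 and 13.18 at those times. The 3 conditions overlapped on their LPS arrays, and its difference of -0.09 ± 0.04 (limma, adjusted p = 0.0838) did not pass.

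Of the 7 glycosidases, 3 fell and 0 rose. Glb1 removes galactose from GM1 ganglioside and keratan sulfate. Glb1 in wild type cells stood at a log2 level of 9.66 unstimulated and 9.62, 9.40, 9.36, 9.71 and 9.83 at 2, 4, 6, 12 and 24 h. Glb1 with EGTA stood at 9.75 without LPS and 9.35, 9.23, 9.57, 9.86 and 9.88 at those times. Glb1 in CD14-deficient cells stood at 8.66 without LPS and 8.57, 8.69, 8.97, 9.45 and 9.27 at those times. Its CD14-deficient level was the lowest of the 3 at every time, below wild type by 1.00 without LPS and 1.05 at 2 h, and the gap was 0.26 at 12 h and 0.56 at 24 h. The CD14-deficient change was -0.60 ± 0.09 (limma, adjusted p = 5.8e-04), and the EGTA difference was -0.01 ± 0.09. The ranges of the LPS arrays still met, since the CD14-deficient array at 12 h lay above the wild type arrays at 4 and 6 h.

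Gla removes terminal galactose from globotriaosylceramide. Gla in wild type cells stood at a log2 level of 10.98 unstimulated and 11.04, 11.12, 11.36, 11.59 and 11.69 at 2, 4, 6, 12 and 24 h. Gla with EGTA stood at 10.83 without LPS and 10.70, 10.74, 10.77, 11.16 and 11.40 at those times. Gla in CD14-deficient cells stood at 10.69 without LPS and 10.63, 10.59, 10.86, 10.84 and 11.03 at those times. Wild type cells were highest at every time from no LPS to 24 h, and their LPS arrays did not overlap the CD14-deficient ones. The changes were -0.57 ± 0.07 (limma, adjusted p = 5.7e-05) without CD14 and -0.41 ± 0.07 (limma, adjusted p = 0.00171) with EGTA, and CD14-deficient minus EGTA gave -0.16 ± 0.07 (limma, adjusted p = 0.0749). The other Gla probe set gave -0.73 and -0.28. Hexa, the alpha subunit of hexosaminidase A, fell by 0.19 (limma, adjusted p = 0.0105). The other 4, Gaa, Gusb, Man2b1 and Neu1, had differences from -0.01 to 0.18 and were not called.

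**Figure D3:**
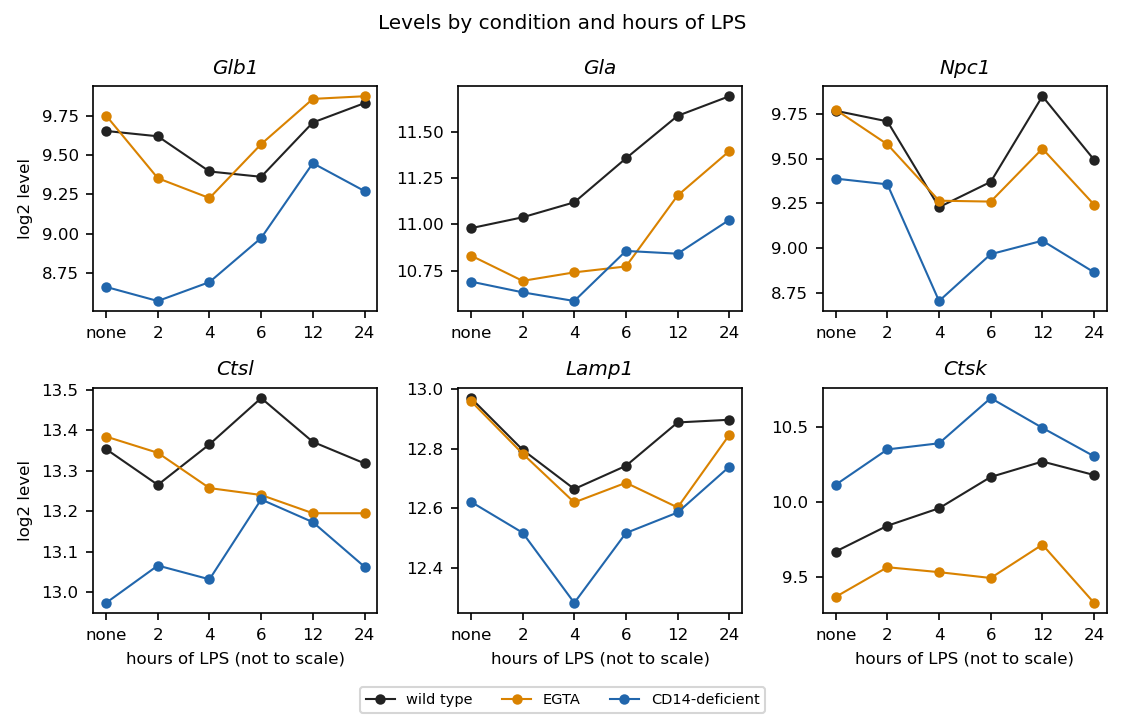
Log2 level against hours of LPS for Glb1, Gla, Npc1, Ctsl, Lamp1 and Ctsk, 1 point per array and 1 line per condition, the hours not to scale. CD14-deficient cells lie lowest for Glb1 and Npc1 at every time and highest for Ctsk, and the points marked none are the arrays without LPS.

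Of the 6 lipid-handling members measured, 2 fell and 0 rose. Npc1 and Npc2 together pass cholesterol from the lysosome to its membrane and out. Npc1 in wild type cells stood at a log2 level of 9.77 unstimulated and 9.71, 9.23, 9.37, 9.85 and 9.49 at 2, 4, 6, 12 and 24 h. Npc1 with EGTA stood at 9.77 without LPS and 9.58, 9.27, 9.26, 9.56 and 9.24 at those times. Npc1 in CD14-deficient cells stood at 9.39 without LPS and 9.36, 8.71, 8.97, 9.04 and 8.87 at those times. Npc1 was lowest in CD14-deficient cells at every time, with the widest gap to wild type at 12 h (0.81). Its change was -0.54 ± 0.07 (limma, adjusted p = 1.9e-04). By the RefSeq table Npc1 is the 1 member on the same chromosome as Cd14.

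Npc2 in wild type cells stood at a log2 level of 12.91 unstimulated and 13.01, 13.16, 13.28, 13.36 and 13.61 at 2, 4, 6, 12 and 24 h. Npc2 with EGTA stood at 13.02 without LPS and 12.87, 13.08, 13.18, 13.31 and 13.50 at those times. Npc2 in CD14-deficient cells stood at 12.80 without LPS and 12.70, 12.84, 13.01, 13.21 and 13.39 at those times. From 2 to 24 h Npc2 climbed in each condition, and CD14-deficient cells were lowest at each time, though arrays of different times overlapped. The CD14-deficient change was -0.25 ± 0.04 (limma, adjusted p = 2.5e-04), and the other Npc2 probe set gave -0.15. The other 4 members, Lipa (acid lipase), Asah1 (acid ceramidase), Ppt1 (palmitoyl-protein thioesterase) and Psap (the precursor of saposins), had differences from -0.10 to 0.10 and were not called. Psap was among the members whose ranges did not overlap, at -0.09 ± 0.03 (limma, adjusted p = 0.0758). The other Psap probe set gave -0.002, so that difference depends on the probe set.

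Of the 4 proton pump members, Atp6v1a, the catalytic subunit of the cytosolic sector, fell by 0.18 (limma, adjusted p = 0.0172). The other Atp6v1a probe set gave -0.09. Atp6v0d1, Atp6v1h and Atp6ap1 differed by 0.12, 0.02 and 0.03 and were not called. Of the 7 membrane proteins, 3 fell and 0 rose. Lamp1 is one of the most abundant glycoproteins of the lysosomal membrane. Lamp1 in wild type cells stood at a log2 level of 12.97 unstimulated and 12.80, 12.67, 12.74, 12.89 and 12.90 at 2, 4, 6, 12 and 24 h. Lamp1 with EGTA stood at 12.96 without LPS and 12.78, 12.62, 12.69, 12.60 and 12.85 at those times. Lamp1 in CD14-deficient cells stood at 12.62 without LPS and 12.52, 12.28, 12.52, 12.59 and 12.74 at those times. CD14-deficient cells were lowest at each time, and the ranges over time met. The Lamp1 change was -0.27 ± 0.05 (limma, adjusted p = 0.00164).

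Lamp2, its relative, serves fusion with autophagosomes and chaperone-mediated autophagy. Lamp2 in wild type cells stood at a log2 level of 12.26 unstimulated and 12.09, 12.44, 12.61, 12.72 and 12.36 at 2, 4, 6, 12 and 24 h. Lamp2 with EGTA stood at 12.31 without LPS and 12.14, 12.36, 12.45, 12.45 and 12.14 at those times. Lamp2 in CD14-deficient cells stood at 12.18 without LPS and 12.17, 12.20, 12.27, 12.24 and 12.14 at those times. At 4 to 24 h wild type cells stood higher than CD14-deficient cells, and at 2 h they did not. The Lamp2 change was -0.24 ± 0.06 (limma, adjusted p = 0.0124), and its 3 other probe sets gave -0.45 to -0.71. Cd68, a glycoprotein of macrophage and dendritic cell endosomes, fell by 0.14 (limma, adjusted p = 0.0378). Cln3, an endolysosomal membrane protein, had the widest spread, at -0.38 ± 0.14 (limma, adjusted p = 0.0580), and Scarb2, Laptm5 and Mcoln1 had differences from -0.08 to 0.13.

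Members with and without CACGTG were compared as a description. With it, 6 of 11 measured members were lower and 0 higher without CD14, with a median of -0.22, and without it 5 of 17 were lower and 1 higher, with a median of -0.08. Over all tested genes, with or without the motif, 12.6% were lower and 17.1% higher, and no share by motif is given. Ctsb, Ctsh and Npc1, which were lower, and Asah1 and Atp6v1h, which were not called, had no promoter entry and are in neither list. The difference between these lists was not tested.

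Macrophage markers moved with this comparison, 6 of the 10 tested falling and 1 rising, among them Apoe at -1.64, C1qc at -1.36 and C1qa at -1.07 against Marco at 1.67. Their summed level over the LPS arrays was 16660 to 27620 in CD14-deficient and 23080 to 30460 in wild type cells. Of 8 dendritic cell markers 5 were higher, and of 12 granulocyte markers 5 were higher and 2 lower, with summed levels over the LPS arrays of 22900 to 36700 without CD14 and 16110 to 35750 in wild type cells. Lower too were 2 of 3 mast cell and basophil markers (Cpa3 at -0.47 and Kit at -0.36) and both plasmacytoid dendritic cell markers tested (Bst2 at -0.56 and Tcf4 at -0.43). Ly6d and Ccr9, the others of the plasmacytoid list on the arrays, lay below the median on every array and were not tested. The part of the markers in the result was not tested.

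With EGTA, 2 of 33 were lower than in wild type cells and 0 higher, against 6.22% and 7.40% of all tested genes. The 2 were Ctsk, at -0.56 ± 0.08 (limma, adjusted p = 9.9e-04), and Gla, given above. Both were lower under all 3 scalings, as were 2.60% of all tested genes, with 5.77% higher. Ctsk was the 1 member whose EGTA and wild type LPS arrays did not overlap, which 2.18% of all tested genes did not. The call of Ctsk held in all 32 alternative settings tried. At an unadjusted p under 0.05 there were 9 members, without the 2 h arrays 4 were called, and without the time block Ctsk alone was. The share of all tested genes is not given for these settings, so these counts cannot be set against it. Lamp2 was not called, at -0.14, while its other probe sets gave -0.33, -0.33 and -0.20.

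The median change was -0.02 over the members and 0.01 over all genes. Without LPS and at 2, 4, 6 and 12 h, 21, 25, 19, 22 and 20 of 33 lay below wild type, with medians from -0.10 to -0.03. Over all tested genes the medians at those times ran from -0.01 to 0.02, and 47.17% to 52.85% lay above wild type. At 24 h 22 of 33 lay above it, with a median of 0.11 against 0.01 over all tested genes. The EGTA arrays of 12 and 24 h are those with the lowest RNA integrity numbers. Macrophage markers were higher for 4 of the 10 tested (Marco at 1.29, Mertk at 0.61, Csf1r at 0.25 and Apoe at 0.20), with a summed level of 26550 to 31690 over the LPS arrays. Granulocyte markers were higher for 2 of 12, Csf3r at 0.74 and Mmp9 at 0.44, with a summed level of 15840 to 40090. Of 3 mast cell and basophil markers 2 were lower, Mcpt8 at -0.68 and Cpa3 at -0.50, with a summed level of 553.0 to 812.2 against 618.3 to 929.1 in wild type cells. Of 8 dendritic cell markers Ciita was higher, at 0.31, and the 1 B cell marker tested, Blnk, was lower, at -0.40. The part of the markers and of the integrity numbers in the result was not tested.

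CD14-deficient cells compared directly with EGTA-treated cells had 13 members lower and 1 higher, where 14.4% and 16.8% of all tested genes were called, and medians were -0.13 for members and 0.03 for all genes. Ctsk differed most, at 0.92 ± 0.08 (limma, adjusted p = 5.5e-06), since it stood above wild type in one condition and below it in the other. Glb1 fell by 0.59, Npc1 by 0.39 and Hexa by 0.29. Asah1 and Laptm5 fell by 0.25 and 0.22. The others were Ctsa, Lamp1, Ctsc, Npc2, Ctsh, Ctsb, Ctsl and Psap. Of those lower, Asah1, Laptm5, Ctsc and Psap were not called against wild type. The other Psap probe set differed from wild type by -0.002 without CD14 and -0.008 with EGTA, so the call of Psap rests on 1 probe set. Leaving out the 4 h arrays left 7 calls, leaving out 12 h left 9, and no further scaling gave 24. Under all 3 scalings 10 members were lower and 1 higher, and the matching share of all tested genes is not given. Macrophage markers moved with this comparison too, 7 of 10 being lower, among them Apoe at -1.85, C1qc at -1.44 and C1qa at -1.30, and Marco higher at 0.38. Of 12 granulocyte markers 6 were higher, among them Camp at 1.79 and Elane at 0.76, and 3 lower, Mmp9 at -1.13, Csf3r at -1.12 and Mmp8 at -0.56. Kit (-0.55) was lower and Mcpt8 (0.40) higher among 3 mast cell and basophil markers, both plasmacytoid dendritic cell markers tested were lower, Bst2 at -0.49 and Tcf4 at -0.53, and of 8 dendritic cell markers H2-Ab1 was higher, at 0.40. The erythroid marker Car2 was lower, at -0.53. Their part in the result was not tested.

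LPS moved members both ways: averaged over the 5 times, 15 of 33 were lower than without LPS and 7 higher, where 34.7% and 27.3% of all tested genes were. The member median was -0.07, near the -0.05 of all tested genes. Glycosidases and lipid hydrolases (Gusb, Man2b1, Lipa, Ppt1 and Asah1) had the largest falls, and Cln3, Atp6v1h, Ctsk, Npc2 and Gla the largest rises. These counts depend on how the arrays are scaled. With median centring 15 were higher and 4 lower, the median of all tested genes then being 0.09, and without further scaling 2 were higher and 17 lower, with -0.32 for all tested genes. Each scaling thus moved all tested genes together, and the share of them called under either is not given.

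Under all 3 scalings, 4 members were lower (Gusb, Lipa, Man2b1 and Ppt1) and 2 higher (Atp6v1h and Npc2). Of all tested genes 21.4% were lower and 13.1% higher under all 3. Cells without LPS were harvested 24 h after plating, a time that equals the hours of LPS for the 24 h arrays alone. No time since plating is stated for the LPS arrays, so whether any of them match is not known.

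**Figure D4:**
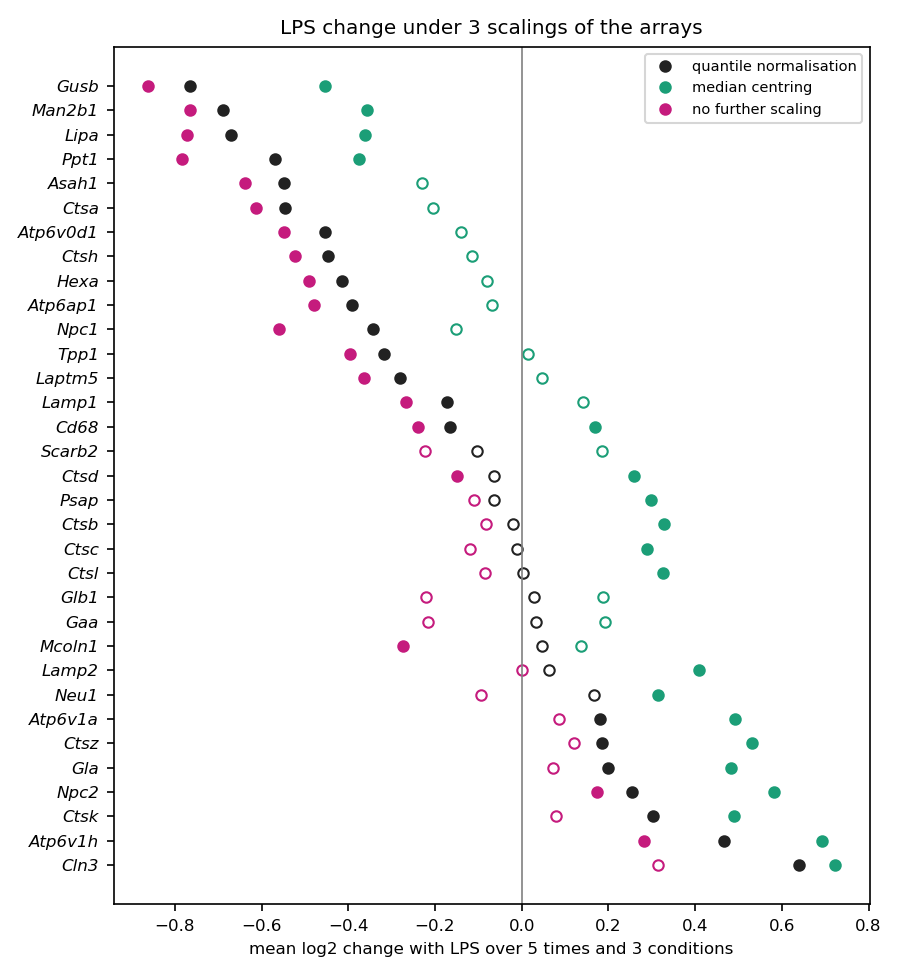
Mean LPS change of each member over the 5 times under quantile normalisation, median centring and no further scaling. Filled points have an adjusted p under 0.05. Gusb, Lipa, Man2b1 and Ppt1 lie below 0 and filled under each and Atp6v1h and Npc2 above 0, while many others cross 0.

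At 2 h, 2 members were higher and 10 lower, against 16.4% and 25.0% of all tested genes, and Cln3 was the 1 called under all 3 scalings, where 8.25% of all tested genes were higher and 11.2% lower. With median centring 15 were higher and 0 lower at 2 h, and without further scaling 1 and 3. At 24 h, 9 were higher and 12 lower, against 26.4% and 25.7%, with 14 and 7 under median centring and 3 and 17 without further scaling. Called under all 3 scalings at 24 h were Cln3, Ctsz and Npc2, which rose, and Asah1, Ctsa, Gusb, Lipa, Man2b1, Npc1 and Ppt1, which fell, where 10.3% and 18.2% of all tested genes were. Between 2 and 24 h, 8 members rose and 5 fell, against 29.9% and 22.7%, with 6 and 12 under median centring and 6 and 8 without further scaling. Under all 3 scalings Ctsz, Gaa, Gla, Mcoln1, Neu1 and Npc2 rose over that interval and Ctsa, Gusb, Lipa, Man2b1 and Npc1 fell, which 20.0% and 20.1% of all tested genes did. The other shares in this paragraph are for quantile normalisation or for all 3 scalings. None is given for median centring or no further scaling alone, so those member counts cannot be set against all genes.

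Man2b1, lysosomal alpha-mannosidase, trims glycoprotein sugars. Man2b1 in wild type cells stood at a log2 level of 12.18 unstimulated and 11.95, 11.63, 11.53, 11.22 and 10.91 at 2, 4, 6, 12 and 24 h. Man2b1 with EGTA stood at 12.07 without LPS and 11.84, 11.56, 11.37, 11.18 and 11.03 at those times. Man2b1 in CD14-deficient cells stood at 12.10 without LPS and 11.98, 11.61, 11.56, 11.18 and 10.87 at those times. It fell step by step in each condition with the 3 conditions close together. Its change at 24 h was -1.18 ± 0.07 (limma, adjusted p = 1.2e-09), the largest fall of any member at that time on this scale, with -0.98 under median centring and -1.35 without scaling.

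Gusb encodes beta-glucuronidase, which digests glycosaminoglycans. Gusb in wild type cells stood at a log2 level of 11.92 unstimulated and 11.58, 11.05, 10.98, 10.87 and 10.92 at 2, 4, 6, 12 and 24 h. Gusb with EGTA stood at 11.98 without LPS and 11.55, 11.06, 10.75, 10.83 and 11.07 at those times. Gusb in CD14-deficient cells stood at 11.79 without LPS and 11.55, 11.02, 11.01, 11.19 and 11.51 at those times. Each LPS array lay below its own unstimulated array, and at 24 h CD14-deficient cells stood highest. The mean change was -0.77 ± 0.09 (limma, adjusted p = 3.5e-06).

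Lipa, the lysosomal acid lipase, frees cholesterol and fatty acids from lipoprotein lipids. Lipa in wild type cells stood at a log2 level of 11.63 unstimulated and 11.48, 11.02, 10.95, 10.63 and 10.10 at 2, 4, 6, 12 and 24 h. Lipa with EGTA stood at 11.68 without LPS and 11.39, 10.93, 10.69, 10.74 and 10.81 at those times. Lipa in CD14-deficient cells stood at 11.19 without LPS and 10.95, 10.71, 10.81, 10.84 and 10.39 at those times. Wild type cells had the lowest level of the 3 at 24 h and EGTA-treated cells the highest. The change at 24 h was -1.07 ± 0.16 (limma, adjusted p = 4.8e-05).

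Asah1 splits ceramide into sphingosine and fatty acid. Asah1 in wild type cells stood at a log2 level of 12.00 unstimulated and 11.66, 11.33, 11.27, 11.19 and 11.20 at 2, 4, 6, 12 and 24 h. Asah1 with EGTA stood at 12.00 without LPS and 11.62, 11.39, 11.28, 11.48 and 11.69 at those times. Asah1 in CD14-deficient cells stood at 11.71 without LPS and 11.42, 11.12, 11.18, 11.21 and 11.27 at those times. Every LPS array was below its unstimulated array, and with EGTA the level was higher at 24 h than at 6 h. Its mean change was -0.55 ± 0.07 (limma, adjusted p = 5.9e-06), and with median centring it was -0.23 and not called.

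Ppt1 removes palmitate from proteins during their degradation. Ppt1 in wild type cells stood at a log2 level of 9.81 unstimulated and 9.64, 9.17, 9.21, 8.99 and 9.15 at 2, 4, 6, 12 and 24 h. Ppt1 with EGTA stood at 9.74 without LPS and 9.49, 9.31, 9.12, 9.29 and 9.59 at those times. Ppt1 in CD14-deficient cells stood at 10.09 without LPS and 9.77, 9.34, 9.26, 8.999 and 9.28 at those times. All 3 conditions fell by 4 h and stayed below their unstimulated arrays at 24 h. The mean change was -0.57 ± 0.09 (limma, adjusted p = 8.2e-05), and the second probe set gave -0.64.

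**Figure D5:**
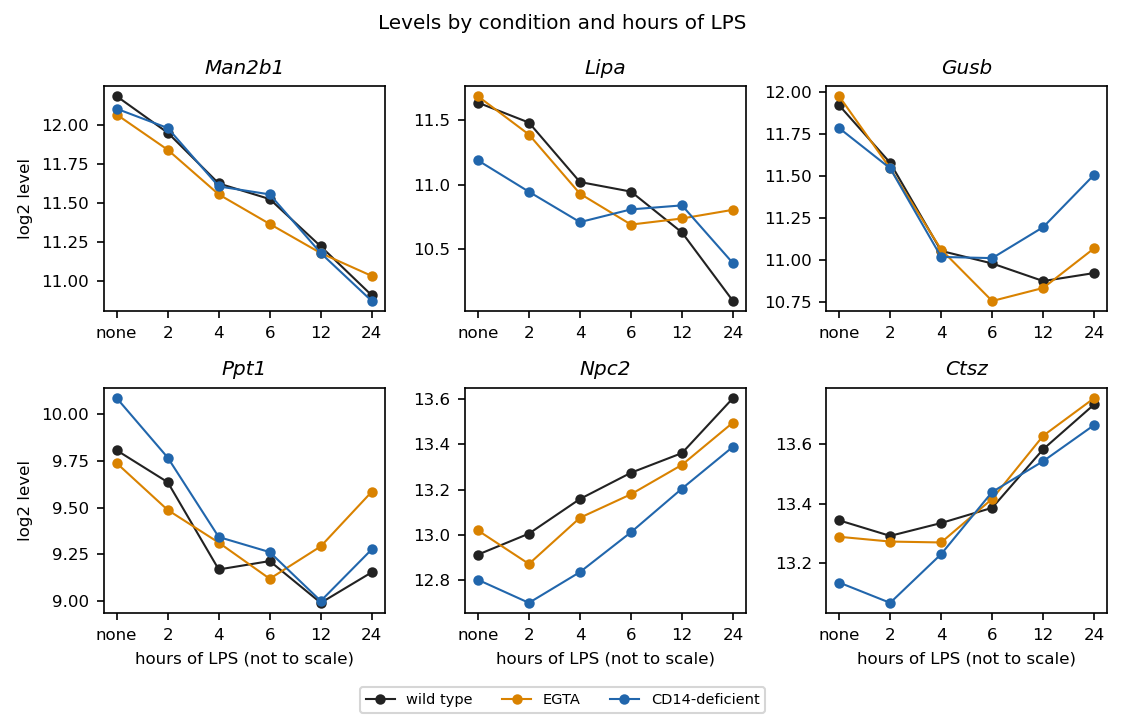
Log2 level against hours of LPS for Man2b1, Lipa, Gusb, Ppt1, Npc2 and Ctsz, 1 point per array and 1 line per condition, the hours not to scale. Man2b1, Lipa, Gusb and Ppt1 lie lower at 24 h than without LPS in each condition, and Npc2 and Ctsz lie higher.

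Cln3 is mutated in juvenile Batten disease. Cln3 in wild type cells stood at a log2 level of 8.05 unstimulated and 9.20, 8.97, 8.71, 8.90 and 9.04 at 2, 4, 6, 12 and 24 h. Cln3 with EGTA stood at 8.47 without LPS and 9.23, 8.79, 8.39, 8.82 and 9.31 at those times. Cln3 in CD14-deficient cells stood at 8.01 without LPS and 8.32, 8.47, 8.69, 8.82 and 8.62 at those times. Wild type and EGTA-treated cells were up at 2 h, whereas CD14-deficient cells rose in smaller steps up to 12 h. The mean change was 0.64 ± 0.14 (limma, adjusted p = 0.00113), with 0.31 and no call without further scaling.

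Atp6v1h is the regulatory H subunit of the proton pump. Atp6v1h in wild type cells stood at a log2 level of 10.20 unstimulated and 10.49, 10.57, 10.79, 10.77 and 10.31 at 2, 4, 6, 12 and 24 h. Atp6v1h with EGTA stood at 10.00 without LPS and 10.27, 10.31, 10.60, 10.67 and 10.42 at those times. Atp6v1h in CD14-deficient cells stood at 10.04 without LPS and 10.45, 10.58, 10.83, 10.81 and 10.35 at those times. Levels in each condition were highest at 6 and 12 h and lower again at 24 h. The mean change was 0.47 ± 0.06 (limma, adjusted p = 7.9e-06). Atp6v1a rose by 0.18, while Atp6v0d1 of the membrane sector and the accessory Atp6ap1 fell by 0.45 and 0.39, but with median centring these 4 changes were 0.69, 0.49, -0.14 and -0.07, and without scaling 0.28, 0.09, -0.55 and -0.48.

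Npc2 changed by 0.25 ± 0.04 (limma, adjusted p = 4.6e-05) on average and 0.59 at 24 h, and Ctsz by 0.18 and 0.46. Gla rose by 0.20 ± 0.07 (limma, adjusted p = 0.0230) and Ctsk by 0.30 ± 0.08 (limma, adjusted p = 0.00503), and without further scaling these 2 were 0.07 and 0.08. Cathepsins B, L and D had LPS differences of -0.02, 0.002 and -0.07 and were not called, nor were Ctsc, Gaa, Glb1, Neu1, Psap, Lamp2, Scarb2 and Mcoln1, which lay between -0.10 and 0.17. Other probe sets of Ctsb gave LPS differences of 0.03, -0.43 and -0.53. The other Scarb2 probe set gave -0.63 and the other Gla probe set -0.06, so the LPS results of Ctsb, Scarb2 and Gla depend on the probe set. Ctsl and Ctsd had 1 probe set each, so no second reading exists for them. The probe sets used for Ctsb, Ctsl and Ctsd lay at percentiles 99.89, 99.58 and 99.54 of mean level. Whether such brightness limits the change they can show was not tested. The remaining calls were falls of Ctsh, Ctsa, Tpp1, Hexa, Npc1, Lamp1, Cd68 and Laptm5, from -0.17 (Cd68) to -0.55 (Ctsa). Of these, Lamp1, Cd68, Laptm5 and Tpp1 turn positive with median centring, at 0.14, 0.17, 0.05 and 0.01.

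By motif, 3 of the 11 measured members with CACGTG were higher and 3 lower after LPS, with a median of 0.03, and 3 and 9 of the 17 without it, with a median of -0.17. These counts are under quantile normalisation, where 27.3% of all tested genes were higher and 34.7% lower, and no share by motif is given. Members without a promoter entry are again in neither list, and the difference was not tested. Granulocyte markers fell with LPS for 10 of 12 and rose for 2, their summed level being 39590 to 43010 on the unstimulated arrays and 15840 to 40090 on the LPS arrays. Macrophage markers fell for 6 of 10 and rose for 2, dendritic cell markers fell for 3 of 8 and rose for 2, and the 2 plasmacytoid dendritic cell markers tested rose. Their part in the result was not tested.

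Whether the condition effects changed with time was tested as late (12 and 24 h) minus early (2, 4 and 6 h). No member was called, with 0.0433% of all tested genes called for CD14 deficiency and 0% for EGTA. In each, 6 members had an unadjusted p under 0.05, a count given without its share over all tested genes. Lipa had the largest difference in both, at 0.58 (limma, adjusted p = 0.224) and 0.55 (limma, adjusted p = 0.280). The smallest adjusted p was 0.123 for Gusb without CD14 (0.47) and 0.150 for Asah1 with EGTA (0.38).

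Whether LPS acted differently by condition was tested against each condition's unstimulated array, 1 array being assumed to vary like the LPS arrays. No member was called, with 0.156% of all tested genes called without CD14 and 1.66% with EGTA. At an unadjusted p under 0.05 there were 2 members and 1 member, and the smallest adjusted p was 0.521 for Scarb2 and 0.264 for Npc2.

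Lysosomal genes outside the 33 gave counts in both directions without CD14, where 17.1% of all tested genes were higher and 12.6% lower. Of 8 other proteases, 4 rose and 2 fell, among them Ctse at 0.56, Napsa at 0.36 and Dpp7 at 0.27 against Lgmn, the asparaginyl endopeptidase, at -0.63. Of 15 other hydrolases and cofactors, 1 rose and 4 fell, with Galns at -0.46, Acp5 at -0.43 and Naglu at -0.41 against Hgsnat at 0.38. Of 15 other membrane proteins, 2 rose and 7 fell, with Tmem192 at -0.41, Laptm4a at -0.33 and Cd164 at -0.28 against the channel Mcoln3 at 0.63. Of 12 further pump genes 2 fell (Tcirg1 at -0.35 and Atp6ap2 at -0.16), and of 10 sorting genes 3 rose (Gga2 at 0.51, Sort1 at 0.51 and Gnptab at 0.19) and Sumf1 fell by 0.32. Of the 14 regulators, TFEB relatives and mTORC1 anchors included, 0 were called by limma, with 3 at an unadjusted p under 0.05, and Tfeb stood at 0.01 ± 0.14. Of 4 cystatins, Cst7, the cathepsin inhibitor cystatin F, fell by 0.87 and Cst3 rose by 0.12.

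With EGTA, where 7.40% of all tested genes were higher and 6.22% lower, 2 of 15 hydrolases rose (Acp2 at 0.77 and Acp5 at 0.41) and 2 fell (Hgsnat at -0.41 and Galns at -0.23). Of 15 membrane proteins Laptm4b was higher at 0.22, and Mcoln2 and Slc15a3 were lower at -0.62 and -0.31. Among 14 regulators Tfeb was higher at 0.61 and Mitf lower at -0.49, Cst7 of 4 cystatins was higher at 0.41, of 12 pump genes Atp6ap2 and Atp6v0e were lower at -0.23 and -0.19, and 0 of the 8 proteases and 10 sorting genes were called by limma, with 0 and 3 at an unadjusted p under 0.05.

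After LPS, averaged over the 5 times, 34.7% of all tested genes were lower and 27.3% higher. The list counts that follow are under quantile normalisation, and other scalings are given for the pump genes alone. Of 8 other proteases 5 fell, with Prcp at -0.93, Napsa at -0.80, Dpp7 at -0.71 and Ctse at -0.70, and 0 rose. Of 15 hydrolases 8 fell and 2 rose, Pla2g15 at -1.11, Gm2a at -0.98 and Fuca1 at -0.73 against Acp5, tartrate-resistant acid phosphatase, at 1.38. Of 15 membrane proteins 6 rose and 3 fell, with the channel Mcoln2 at 2.00, the chloride exchanger Clcn7 at 1.14 and Slc15a3 at 0.54 against Tpcn1 at -1.92. Of 4 cystatins 2 rose, Cst7 at 2.88 and Cstb at 0.16, and Stfa3 fell, at -0.95. Of 14 regulators 6 fell and 2 rose, with Flcn at -0.78, Lamtor4 at -0.67, Lamtor1 at -0.60 and Lamtor2 at -0.40. Of 10 sorting genes 4 rose, among them Gga1 at 0.55 and Hgs at 0.39, and 2 fell (Sort1 at -0.96 and Vps18 at -0.65). Of 12 pump genes 2 rose, Atp6v1e1 at 0.35 and Atp6v0b at 0.33, both called higher under all 3 scalings, and 4 fell, of which Atp6v1b2 (-0.32) and Atp6v1c1 (-0.25) turn to 0.02 and 0.08 with median centring.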

How the data were processed

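Total RNA of each culture was hybridised to 1 Affymetrix array of 22690 probe sets, without replicate arrays. As deposited, each value is a linear intensity that the authors made with MAS5, per the submitters' processing notes (version not given in the sources used here). Array trimmed means differed, from 330.5 to 472.3, so intensities were quantile-normalised, 16 was added and log2 taken. Of the probe sets, 20393 name 1 gene in the platform annotation, 691 several and 1606 none.

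A gene was tested when above its array's median gene on at least 2 fitted arrays. Models were fitted in R 4.3.3 with limma 3.58.1 (lmFit, eBayes with an intensity trend) and adjusted by Benjamini-Hochberg over all genes tested, with 8 residual degrees of freedom for conditions, 10 for LPS, 6 for late minus early and 8 for induction. The fits were tested on simulated data. Errors after ± are standard errors of the fit.

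Values were given on every array for members called in either condition comparison (up to 8 each, by size), the 5 largest LPS rises and falls, and Lamp1, Ctsd, Ctsl and Ctsb. From each other lysosomal list, the called genes with the smallest p, up to 4, were named in the comparisons with wild type and the mean LPS change. Members and lists were chosen with earlier results of these data known. Alternatives were other scalings, filters, pseudocounts (1 and 64), probe set and variance rules, fits without a block, and leaving out arrays, times or conditions. Counts at an unadjusted p, in an alternative fit or under a single other scaling are given without the share of all tested genes. Promoters were read with Python 3.11.15. The number of arrays limits the precision.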

Additional observations from a re-analysis of the deposited data

Results flagged for a closer look

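Over the 5 LPS times, 4 of 99 differences (33 members in 3 comparisons) had 1 time far from the other 4. Ctsc was 0.169 above wild type with EGTA at 24 h, the next highest time being 0.069. Neu1 stood at -0.189 with EGTA at 2 h, against 0.087 for the nearest time. Lamp1 stood at -0.287 with EGTA at 12 h, the nearest being -0.057. Atp6v0d1 was -0.139 in CD14-deficient minus EGTA-treated cells at 24 h, the nearest being 0.077. Chance alone marks about 1 in 20 such groups, which is 4.95 of 99, so 4 is no more than that share.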

How the results depend on the processing

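Of the 15 CD14 calls, 1 was left without the time block, as were 1 of the EGTA calls and 1 of the CD14-deficient minus EGTA calls. Under no further scaling, CD14-deficient minus EGTA gave 24 calls and LPS at 2 h gave 4. LPS at 2 h gave 6 without the condition block, EGTA minus wild type gave 4 with the mean of probe sets, and induction with EGTA gave 2 with median centring. Leaving out arrays, times or conditions gave 8 to 15 calls for CD14 (8 without 4 h), 2 to 4 for EGTA (4 without 2 h), 7 to 16 for CD14-deficient minus EGTA (7 without 4 h, 9 without 12 h), 5 to 10 for LPS at 2 h (5 without the wild type arrays), and within 1.5 times for LPS over all times, at 24 h and 24 h against 2 h.

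With median centring these LPS changes turned positive: over all times Cd68 (0.169), Lamp1 (0.142), Laptm5 (0.046) and Tpp1 (0.014); at 2 h Asah1 (0.084), Atp6ap1 (0.101), Atp6v0d1 (0.125), Cd68 (0.223), Ctsa (0.207), Ctsh (0.121), Gusb (0.065), Hexa (0.217), Man2b1 (0.234) and Tpp1 (0.178); at 24 h Tpp1 (0.009). Without further scaling Cd68 at 24 h was -0.025. Median intensities were highest on 2 of the 3 unstimulated arrays, and beyond that the cause was not tested. Leaving out the unstimulated EGTA array, or EGTA at 12 and 24 h, was chosen after seeing the data. The labels give the arrays no replicate numbers, so arrays were paired by LPS time in the condition comparisons and by condition in the LPS comparisons.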
